A study of Homo sapiens with 19 samples.

Results

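Luminal and epithelial identity genes are described here at the superenhancers and OCT-2 peaks of MDA-MB-231 cells, a human triple-negative breast cancer line. The 10 genes were taken as a named list, ESR1, GATA3, ELF3, GRHL2, FOXA1, CDH1, EPCAM, KRT7, KRT8 and KRT18, and all 10 were found by symbol in the RefSeq table of GRCh38.p14, which places 20037 protein-coding genes on chromosomes. The list was chosen with earlier results of these data known, so its shares below are descriptive. The study holds 19 ChIP-seq samples, from derivatives of MDA-MB-436 and of MDA-MB-231; 12 were precipitated for H3K27ac, 4 for OCT-2 and 3 were inputs. The 6 samples behind the lists used here come from 231Pa_Luc+OCT-2, which is polyclonal parental MDA-MB-231 with stably expressed luciferase and POU2F2 transgenes, and from 231Pa_Luc+GFP, the same parental cells with luciferase and GFP. Both populations carry luciferase, and both were grown in serum-supplemented medium. H3K27ac was profiled in 231Pa_Luc+OCT-2 and in 231Pa_Luc+GFP, and OCT-2 in 231Pa_Luc+OCT-2, with 2 replicates each. Which promoter drives the transgenes is not stated in the labels.

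The authors deposited, from the replicates of each group, a list of 518 superenhancers for 231Pa_Luc+OCT-2, a list of 337 for 231Pa_Luc+GFP and a list of OCT-2 peaks for 231Pa_Luc+OCT-2, of which 5736 lie on chromosomes. These hold positions in hg38 and no counts or scores, so the depth and the spread between replicates are unknown and no difference below has a test over samples. In a list made from a cell population, fewer cells with an acetylated region and less acetylation per cell cannot be told apart, and a region missing from a list may lie below the authors' threshold. The study holds no OCT-2 ChIP of 231Pa_Luc+GFP, so binding of the forced and the endogenous protein cannot be told apart.

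Superenhancers are long stretches of clustered, strongly H3K27-acetylated enhancers, which often lie at genes that define a cell's identity. In luminal breast cells the estrogen receptor ESR1, the zinc finger factor GATA3 and the pioneer factor FOXA1 sustain the hormone-responsive programme, and ELF3 and GRHL2 are transcription factors of epithelial cells. E-cadherin (CDH1) and EPCAM join epithelial cells to each other, and the keratins KRT7, KRT8 and KRT18 build the intermediate filaments of simple epithelia. MDA-MB-231 is known as a line with mesenchymal traits that lacks the estrogen receptor. OCT-2, encoded by POU2F2, is a POU factor that binds the octamer element.

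The OCT-2 peak that falls on a promoter at these genes is shown here by its sequence. The first sequence is the RefSeq promoter window of ELF3 (GRCh38.p14, chr1:202010337-202010636, plus strand), which holds an OCT-2 peak. The second, shown for contrast, is the window of FOXA1 (chr14:37595200-37595499, minus strand), which holds none. Each runs 5′ to 3′ over 300 bases, from 250 bases before the gene's start. Capitals mark the letters of the octamer (ATGCAAAT or its reverse complement ATTTGCAT) and of the E-box bound by ZEB and SNAI repressors (CACCTG or CAGGTG). In ELF3 an octamer and an E-box stand directly beside each other, without overlap.
ELF3: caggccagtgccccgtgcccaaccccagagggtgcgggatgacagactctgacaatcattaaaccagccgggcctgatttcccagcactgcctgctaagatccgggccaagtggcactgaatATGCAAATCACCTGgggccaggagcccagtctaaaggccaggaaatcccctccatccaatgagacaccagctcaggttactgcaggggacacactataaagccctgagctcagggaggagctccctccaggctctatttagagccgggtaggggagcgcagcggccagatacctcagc
FOXA1: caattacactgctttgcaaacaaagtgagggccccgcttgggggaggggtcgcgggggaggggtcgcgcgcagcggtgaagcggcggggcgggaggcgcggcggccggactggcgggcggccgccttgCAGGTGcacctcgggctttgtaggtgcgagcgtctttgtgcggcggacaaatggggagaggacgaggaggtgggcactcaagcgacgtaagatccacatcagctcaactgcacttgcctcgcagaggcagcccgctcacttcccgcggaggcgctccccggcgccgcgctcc

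Superenhancers were listed at 1 of the 10 genes in each population, and it was KRT7 in both. Within 10 kb of the gene body, a superenhancer of 231Pa_Luc+OCT-2 was met by 1 of 10 genes, beside 5.74% of protein-coding genes. In 231Pa_Luc+GFP it was also 1 of 10, beside 4.31%. Within 50 kb the counts stayed at 1 in the OCT-2 cells (7.92% of protein-coding genes) and 1 in the GFP cells (5.81%). Within 200 kb they were 1 in the OCT-2 cells (15.8%) and 2 in the GFP cells (11.8%), where EPCAM was the additional gene. With 10 genes, 1 or 2 called genes lie near these background shares.

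OCT-2 peaks lay at or in 4 of the genes that had no superenhancer: the transcription factor genes ESR1, GATA3, ELF3 and GRHL2. Within 10 kb, 4 of 10 genes had a peak (15.5% of protein-coding genes), within 50 kb 5 (28.9%) and within 200 kb 6 (58.1%), KRT7 and EPCAM being the additional ones. At 200 kb the count of 6 of 10 was thus close to the share of all protein-coding genes. Genes with an OCT-2 peak and no superenhancer of either population numbered 4 of 10 within 10 kb, beside 13.1% of protein-coding genes. The same 4 genes made up this count within 50 kb, beside 23.7%, and within 200 kb, beside 43.7%. The transcription factor gene FOXA1, the adhesion genes CDH1 and EPCAM and the 3 keratin genes had no peak within 10 kb. The count of 4 genes with a peak fell to 2 when the distance was taken from the gene ends alone (GATA3 and ELF3). The share of protein-coding genes was then 9.73%. Without the lowest quartile of peaks by width it fell to 2 (ESR1 and GATA3), beside 12.3% of protein-coding genes.

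Gene length bears on these counts, since a longer body has more room for a peak. Of the protein-coding genes over 100 kb, 35.9% had an OCT-2 peak within 10 kb, against 11.4% of those of 100 kb or less. Both members over 100 kb, ESR1 (473 kb) and GRHL2 (189 kb), had a peak, and of the 8 shorter members GATA3 and ELF3 did.

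**Figure D1:**
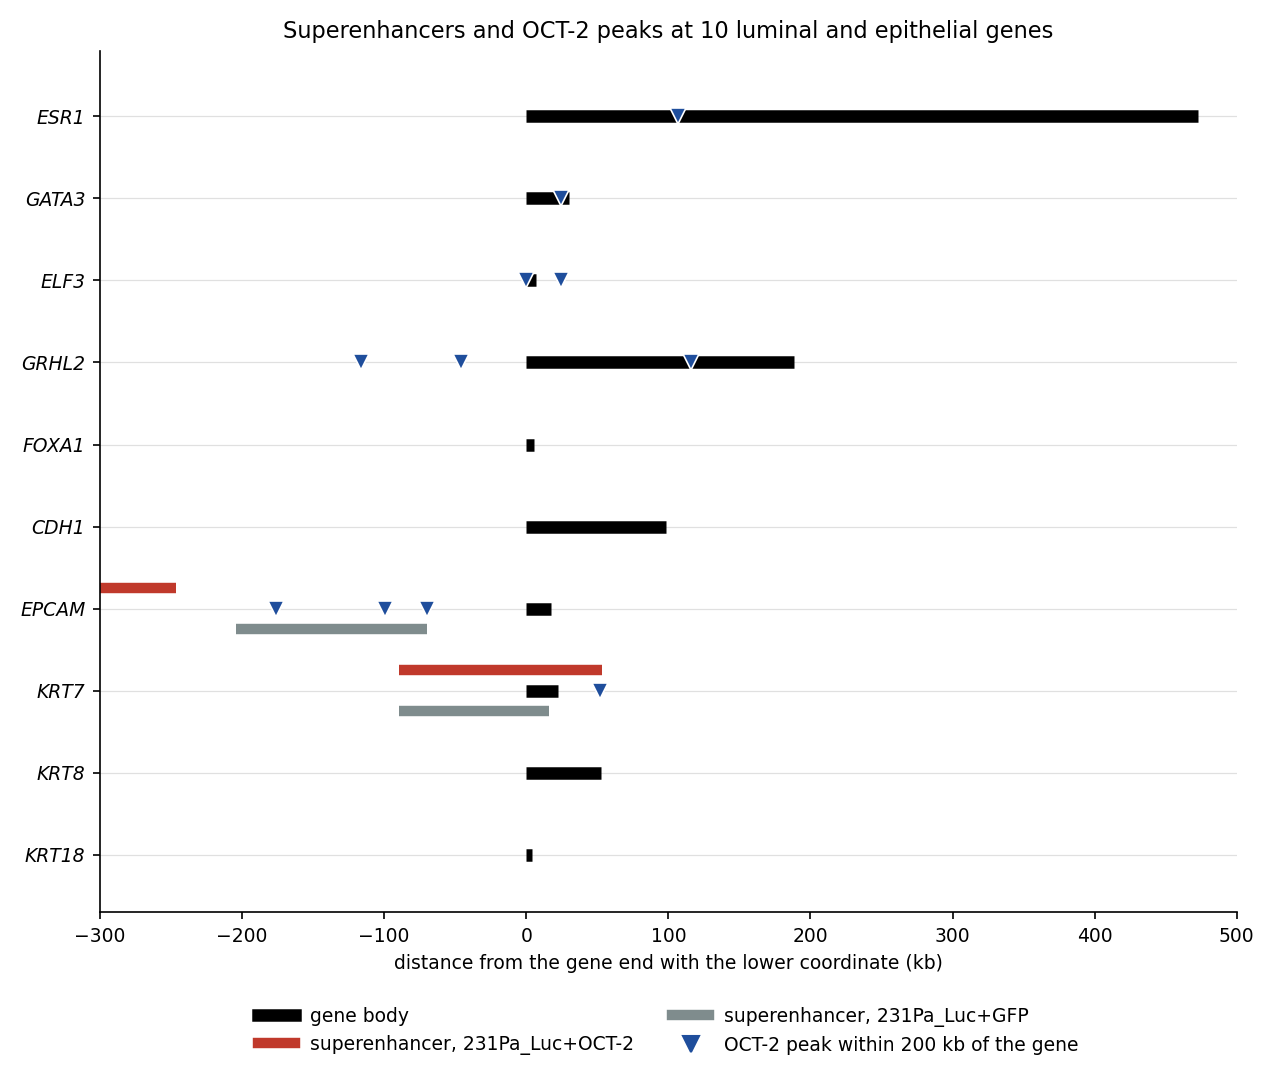
Map of the 10 loci, each drawn from the gene end with the lower coordinate (kb), with the gene body (black), superenhancers of 231Pa_Luc+OCT-2 (red, above) and of 231Pa_Luc+GFP (grey, below) and OCT-2 peaks within 200 kb (blue triangles). Superenhancers meet KRT7 alone, and peaks lie in or beside the bodies of ESR1, GATA3, ELF3 and GRHL2. Superenhancers drawn are those within 200 kb of the gene, or else the nearest of each list. The red bar at EPCAM continues beyond the left edge and overlaps a superenhancer of 231Pa_Luc+GFP that is not drawn.

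**Figure D2:**
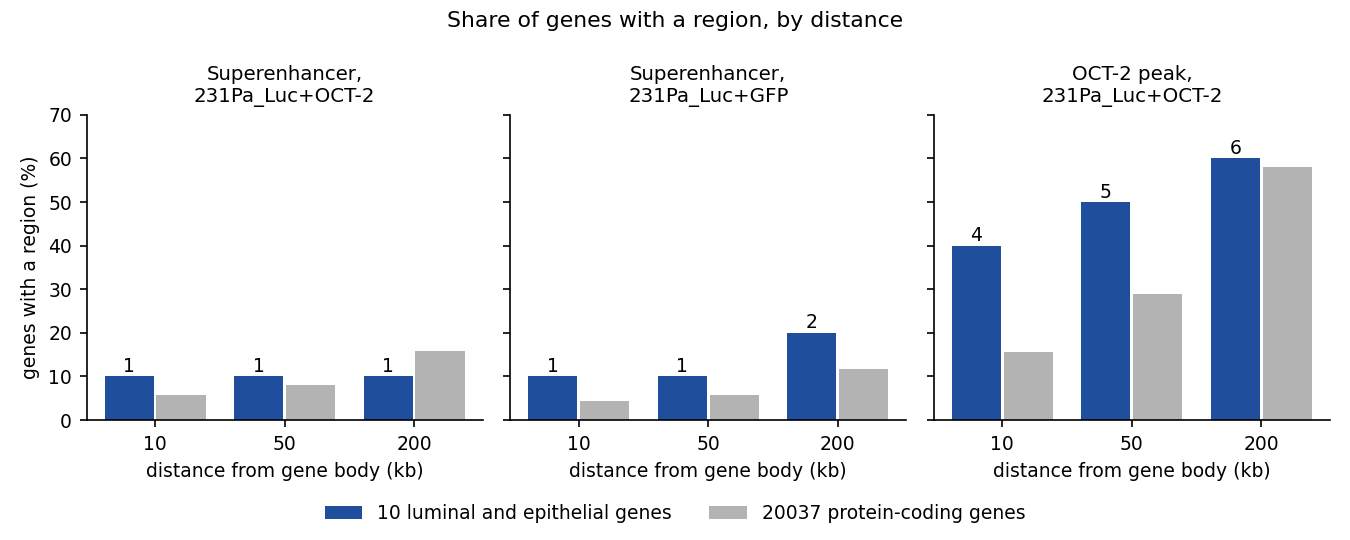
Share of genes (%) with a region within 10, 50 or 200 kb of the gene body, for the 10 genes (blue, with their count above the bar) and for 20037 protein-coding genes (grey). The peak counts of 4, 5 and 6 genes stand beside 15.5%, 28.9% and 58.1% of all protein-coding genes.

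ELF3, an ETS-family factor of epithelial cells, was the only member with an OCT-2 peak at an annotated start among those with promoter sequence. The gene (chromosome 1, 202010587 to 202017183) had a peak of 238 bp at 202010339 to 202010576, which lay wholly inside the promoter window printed above, from -248 to -11 counted in bases from the start. Its centre lay at -130, and the octamer ATGCAAAT spans -128 to -121. The octamer's centre was 5.00 bases from the peak's centre. The E-box CACCTG follows from -120 to -115. The peak also covers the start of ELF3-AS1, an antisense RNA gene on the minus strand, whose start lay 104 bases from the peak's centre, so the peak cannot be given to one of these genes rather than the other.

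A start with a peak and an octamer was uncommon over the genome. Of the 5736 peaks, 391 (6.82%) met a promoter window, and 496 of 35116 windows (1.41%) held a peak. The octamer was present in 78 of the 496 windows with a peak (15.7%), against 545 of 34620 windows without one (1.57%) and 623 of all windows (1.77%). In the 78 windows with both, which belong to 74 genes, the median distance between octamer and peak centres was 16.8 bases, and 16 of them (20.5%) were as close as ELF3 or closer. Windows of neighbouring starts overlap, so the same peak and octamer can count more than once. The 16 include ELF3 itself and ELF3-AS1, which share both. The E-box letters occurred in 11.9% of the windows with a peak, against 20.7% of those without and 20.6% of all. These matches describe letters in a window and are not binding sites by themselves.

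ELF3 had another peak of 421 bp at 202034681 to 202035101, 17.5 kb past the gene's end with the higher coordinate. Only 2.32% of all peaks were at least as wide, whereas the peak at the start had the narrowest width in the list, which 9.31% of peaks share. Each listed peak is a merge of 2 calls by its name in the list, and its width does not measure binding strength. No superenhancer lay within 200 kb of ELF3. The nearest one of 231Pa_Luc+OCT-2, at PHLDA3, CSRP1 and NAV1 (201456357 to 201560216, 104 kb wide), lay 450 kb away and overlapped none of the GFP cells, whose nearest superenhancer was 4.99 Mb away.

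Promoter windows were at hand for 5 of the 10 genes, 15 windows in all, since ESR1 and GATA3 have several annotated starts. Of these 15, 1 held a peak and 1 held the octamer, in each case that of ELF3. The E-box letters stood in 2 windows, those of ELF3 and FOXA1, and FOXA1 had CAGGTG from -122 to -117. Windows of ESR1, GATA3 and KRT8 held neither motif.

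ESR1, the estrogen receptor gene (chromosome 6, 151656672 to 152129619), had 1 OCT-2 peak within 200 kb, of 286 bp at 151763268 to 151763553. It lay inside the gene body, 107 kb from the gene's first base and at -42.3 kb from the nearest of 6 annotated starts of ESR1. An uncharacterised non-coding gene, LOC107986529, overlapped the peak as well. The table gives no exons, so intron and exon were not told apart for this or any other peak. The nearest superenhancer of 231Pa_Luc+OCT-2 was 3.19 Mb away, at SASH1, and that of 231Pa_Luc+GFP 5.89 Mb away, at SYNJ2.

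GATA3 (chromosome 10, 8045333 to 8075198) had 1 peak within 200 kb, of 259 bp at 8069653 to 8069911. It lay in the last part of the gene body, at -5.42 kb from its far end and 9.32 kb past the nearest of 6 annotated starts. The nearest superenhancers were 2.42 Mb away in 231Pa_Luc+OCT-2 and 2.42 Mb away in 231Pa_Luc+GFP, and the regions of the populations overlapped each other.

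GRHL2, a grainyhead factor that maintains epithelial junction genes (chromosome 8, 101492439 to 101681200), had 3 peaks within 200 kb. The peak of 239 bp at 101608024 to 101608262 lay in the body, 116 kb from its lower end and at -73.1 kb from its upper end. The other peaks lay outside, 45.8 kb and 116 kb below the gene, at 101446354 to 101446622 and 101376034 to 101376306. For the more distant one the nearest protein-coding gene was LOC124901993, at 54.8 kb. The nearest superenhancer of 231Pa_Luc+OCT-2 was 1.11 Mb away, near AZIN1, and that of 231Pa_Luc+GFP 7.53 Mb away, at PDP1.

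FOXA1 and CDH1 had no region of any list within 200 kb. FOXA1 (chromosome 14, 37589552 to 37595249) had its nearest OCT-2 peak at 1.10 Mb, near NKX2-1, the largest such distance among the 10 genes. Superenhancers came no closer than 2.17 Mb in 231Pa_Luc+OCT-2 and 2.17 Mb in 231Pa_Luc+GFP, in each case a region over NFKBIA and PSMA6. CDH1 (chromosome 16, 68737292 to 68835537) lay 10.9 Mb from a superenhancer of 231Pa_Luc+OCT-2, at KIFC3, and 12.6 Mb from one of 231Pa_Luc+GFP, at CMIP, the largest distances of the 10 genes in these lists. Its nearest OCT-2 peak was 238 kb away, in TANGO6.

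KRT7, a keratin of simple epithelia (chromosome 12, 52233243 to 52255853), lay at a superenhancer in both populations, and that of the OCT-2 cells reached further. The region of 231Pa_Luc+OCT-2 spanned 52143619 to 52286325, 143 kb, and that of 231Pa_Luc+GFP 52143454 to 52249494, 106 kb. Their lower edges differed by 165 bp, while the upper edge lay 36.8 kb higher in the OCT-2 cells. The region of the OCT-2 cells covered the whole 22.6 kb of KRT7, against 16.3 kb of it in the GFP cells. Both overlapped KRT80, and the region of the OCT-2 cells also met the hair keratin genes KRT86 and KRT81. KRT81 and KRT86 are near-identical copies, so reads at this edge can be hard to place, and the effect of that on the edge was not tested.

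The only OCT-2 peak within 200 kb of KRT7 (356 bp, 52285296 to 52285651) lay in the body of KRT86, 29.4 kb from KRT7. Its centre was 852 bp inside the upper edge of the OCT-2 cells' region and the peak was 35.8 kb beyond the edge of the GFP cells' region. Among 297 superenhancers that paired as 1 with 1 between the lists, the width in 231Pa_Luc+OCT-2 over that in 231Pa_Luc+GFP had a median of 0.996 (quartiles 0.881 and 1.00). The ratio at KRT7 was 1.35, and 17 pairs (5.72%) reached it or more. By width, the KRT7 region ranked 85 of 518 in the OCT-2 cells and 166 of 337 in the GFP cells.

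KRT8 and KRT18, the partner keratins that pair in filaments of simple epithelia, lie in the same keratin gene cluster as KRT7 but had no region within 200 kb. Their annotated bodies overlap at 52948855 to 52949860, so they are a single locus rather than separate observations. The KRT7 superenhancer was also the nearest one for both: KRT8 was 611 kb from it in 231Pa_Luc+OCT-2 and 648 kb in 231Pa_Luc+GFP. For KRT18 the gaps were 663 kb in 231Pa_Luc+OCT-2 and 699 kb in 231Pa_Luc+GFP. The nearest OCT-2 peak (53379539 to 53379903) lay 430 kb from KRT8 and 427 kb from KRT18, 272 bp from SP1.

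EPCAM, an epithelial cell adhesion molecule (chromosome 2, 47369311 to 47387020), was the only member with a superenhancer within 200 kb in one population and not in the other. The nearest superenhancer of 231Pa_Luc+OCT-2 was 247 kb away, over TTC7A, MCFD2 and STPG4, and that of 231Pa_Luc+GFP 69.8 kb away. The GFP cells' region (47165110 to 47299502, 134 kb) overlapped CALM2, a calmodulin gene, and the non-coding gene EPCAM-DT. It is 1 of 29 superenhancers of the GFP cells (8.61% of their list) that overlapped none of the OCT-2 cells, and the nearest superenhancer of the OCT-2 cells lay 42.5 kb from it.

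In the OCT-2 cells, 3 peaks lay along this region that their own superenhancer list lacks. The peaks at 47193262 to 47193519 and 47269841 to 47270167 lay inside the GFP cells' superenhancer, and the peak at 47299625 to 47299912 began 122 bp beyond its upper edge. All 3 fell in the body of EPCAM-DT. They were 176, 99.1 and 69.4 kb from EPCAM itself, and for the first and the second of them CALM2 was the nearer protein-coding gene.

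**Figure D3:**
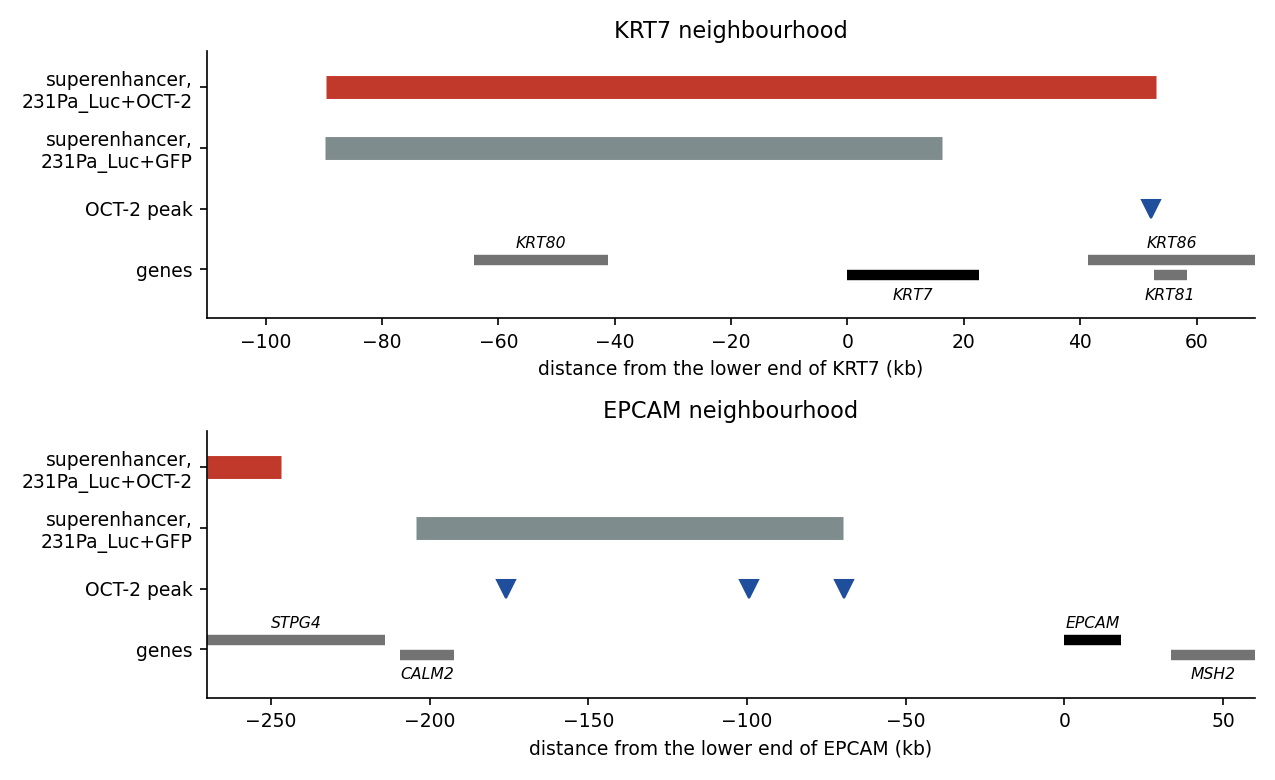
Neighbourhoods of KRT7 (top) and EPCAM (bottom), as distance from the gene end with the lower coordinate (kb), with superenhancers of 231Pa_Luc+OCT-2 (red) and 231Pa_Luc+GFP (grey), OCT-2 peaks (blue) and protein-coding genes. At KRT7 the red bar runs 36.8 kb past the grey one and ends beside the OCT-2 peak, and at EPCAM the grey bar over CALM2 has no red counterpart. The red bar at the left continues beyond the edge. Superenhancers drawn are those within 200 kb of the gene, or else the nearest of each list. The red bar at the left overlaps a superenhancer of 231Pa_Luc+GFP that is not drawn.

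Over the 10 genes, 11 distinct OCT-2 peaks lay within 200 kb. Of these, 3 lay in the body of a member, 1 inside a superenhancer of 231Pa_Luc+OCT-2 and 2 inside one of 231Pa_Luc+GFP. Over all peaks, 15.8% lay inside a superenhancer of 231Pa_Luc+OCT-2. The shares of all peaks inside superenhancers of 231Pa_Luc+GFP or inside gene bodies were not computed, so whether those counts are usual is unknown. The median gap from gene body to OCT-2 peak was 49.4 kb for the 10 genes, beside 145 kb for protein-coding genes. To the nearest superenhancer it was 884 kb beside 1549 kb in 231Pa_Luc+OCT-2, and 2295 kb beside 2517 kb in 231Pa_Luc+GFP. For 4 genes, ESR1, ELF3, GRHL2 and CDH1, the nearest superenhancer of the OCT-2 cells overlapped none of the GFP cells, and for the other 6 it overlapped one. Over the whole list, 204 of 518 superenhancers of the OCT-2 cells (39.4%) overlapped none of the GFP cells. The 4 of 10 counts genes rather than regions, and KRT7, KRT8 and KRT18 have the same nearest region. The shares are thus of unlike units, and no difference from the whole list is read from them.

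**Figure D4:**
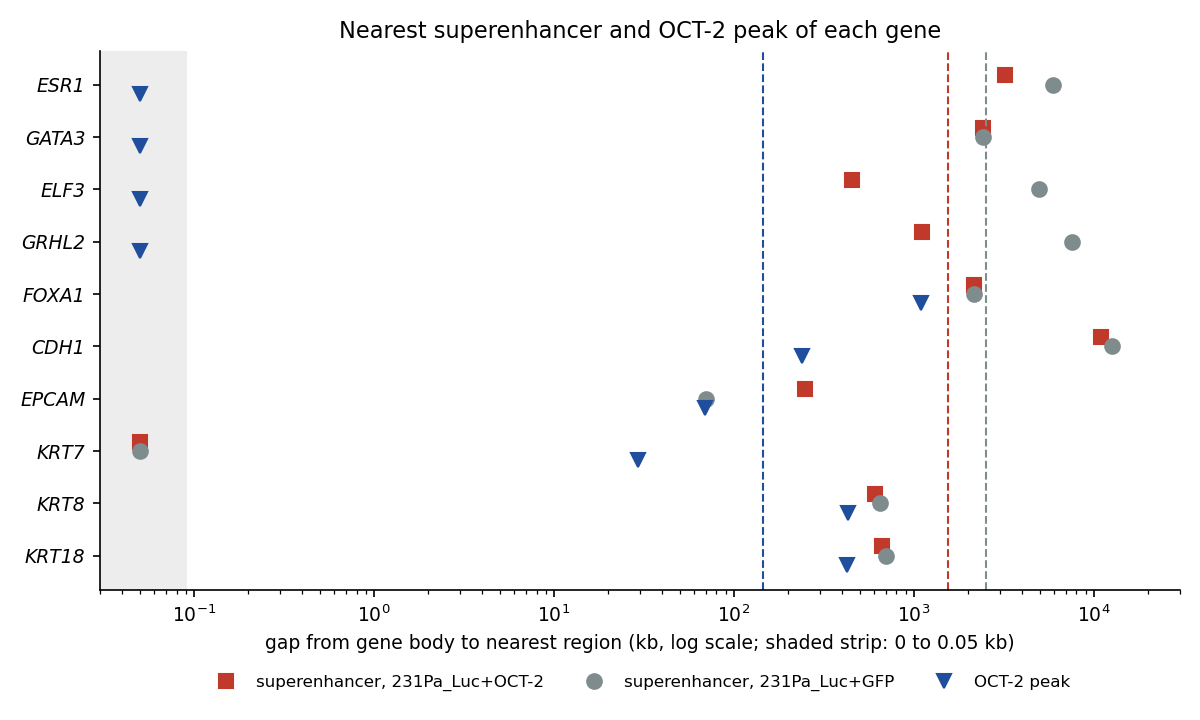
Gap from each gene body to the nearest superenhancer of 231Pa_Luc+OCT-2 (red squares), of 231Pa_Luc+GFP (grey circles) and OCT-2 peak (blue triangles), in kb on a log axis, with gaps from 0 to 0.05 kb drawn in the shaded strip. Dashed lines are the medians over protein-coding genes, 1549, 2517 and 145 kb; peaks of ESR1, GATA3, ELF3 and GRHL2 and the superenhancers of KRT7 lie in the strip.

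Other genes of the epithelial and luminal programmes were read in the same way, within 10 kb. These lists were chosen with earlier results of these data known, so a share above that of protein-coding genes is descriptive and no independent evidence. Of 14 other epithelial transcription and splicing factors, EHF, GRHL3 and TFAP2A met a superenhancer of 231Pa_Luc+OCT-2 and also one of 231Pa_Luc+GFP (3 of 14, 21.4%, in each, beside 5.74% of protein-coding genes in the OCT-2 cells and 4.31% in the GFP cells). EHF is an ETS factor related to ELF3, GRHL3 a grainyhead factor related to GRHL2, and TFAP2A an AP-2 factor of ectoderm. All 3 also had an OCT-2 peak, as did KLF5 and TP63, which makes 5 of 14 (35.7%, beside 15.5%). Of these 5, TP63 (301 kb) alone is over 100 kb, where 35.9% of protein-coding genes had such a peak. KLF5, a Krüppel-like factor of epithelia, and TP63, the p53-related factor of basal epithelium, had no superenhancer within 200 kb. Among the 9 that had no peak within 10 kb were OVOL1, ESRP1 and KLF4.

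Of 22 other genes of epithelial adhesion and keratins, S100A14 met a superenhancer in 231Pa_Luc+OCT-2 and in 231Pa_Luc+GFP (1 of 22, 4.55%). OCT-2 peaks were found at S100A14 and at CTNND1, which encodes the p120 catenin that binds cadherins (2 of 22, 9.09%). Of protein-coding genes, 5.74% and 4.31% met such superenhancers and 15.5% a peak. Within 200 kb 18 of the 22 had a peak (81.8%, beside 58.1% of protein-coding genes). Some of these genes are neighbours that can have the same peak, so the 18 are not separate observations. Within the same 200 kb, 5 of the 22 (22.7%) had a superenhancer of 231Pa_Luc+OCT-2, beside 15.8% of protein-coding genes. For 231Pa_Luc+GFP it was 3 of 22 (13.6%), beside 11.8%. RAB25, MUC1 and S100A14 were counted in both populations. LAD1, the gene of ladinin, lay 57.0 kb from a superenhancer of 231Pa_Luc+OCT-2 and 5604 kb from one of 231Pa_Luc+GFP. The former is the region over PHLDA3, CSRP1 and NAV1 given above as nearest to ELF3, so it is not a separate region.

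Of 16 genes of the luminal hormone programme, among them PGR, XBP1, SPDEF, TFF1 and ERBB2, none met a superenhancer of either population within 10, 50 or 200 kb. Over protein-coding genes these shares were 6.33%, 8.49% and 16.8%, so among 16 genes a count of 0 lies near the background, most of all at 10 and 50 kb. OCT-2 peaks lay within 10 kb of 4 of the 16, beside 15.5% of protein-coding genes: the estrogen-induced gene GREB1, the T-box factor TBX3, the prolactin receptor gene PRLR and the carbonic anhydrase gene CA12. At GREB1, PRLR and CA12 the peak lay in the gene body, and at TBX3 it was 7.44 kb away. GREB1 (160 kb) and PRLR (182 kb) are over 100 kb, where 35.9% of protein-coding genes had a peak within 10 kb. TFF1, a classical estrogen target, had its nearest peak at 10.8 kb and SPDEF at 10.3 kb, just outside the distance used.

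Of 8 repressors of the epithelial state, 0 met a superenhancer of either population within 200 kb (16.8% of protein-coding genes). ZEB2 and TCF4 had an OCT-2 peak in the gene body (2 of 8, beside 15.5%), and the other 6 had none within 10 kb. ZEB2 (136 kb) and TCF4 (414 kb) are both over 100 kb, a class in which 35.9% of protein-coding genes had a peak within 10 kb. A promoter window of TCF4 held a peak, without the octamer. It was the only gene with a peak in a window among those of the other lists that have a window. Windows were at hand for 16 of 22 adhesion and keratin genes, 8 of 14 transcription and splicing factors and 9 of 16 hormone programme genes. They were also at hand for 5 of 8 repressors and 6 of 8 mesenchymal and basal genes. ZEB1, the repressor best known from mesenchymal breast cancer lines, was 216 kb from a superenhancer of 231Pa_Luc+OCT-2 and 1410 kb from one of 231Pa_Luc+GFP, with its nearest peak at 171 kb. Among genes of mesenchymal and basal cells, 7 of 8 (VIM, CD44, AXL, ITGB1, EGFR, FOSL1 and ETS1, all but CAV1) met a superenhancer within 10 kb in 231Pa_Luc+OCT-2, and the same 7 in 231Pa_Luc+GFP, beside 5.74% and 4.31% of protein-coding genes. That list was drawn up with superenhancers of these cells known, so it is no independent check of the line.

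**Figure D5:**
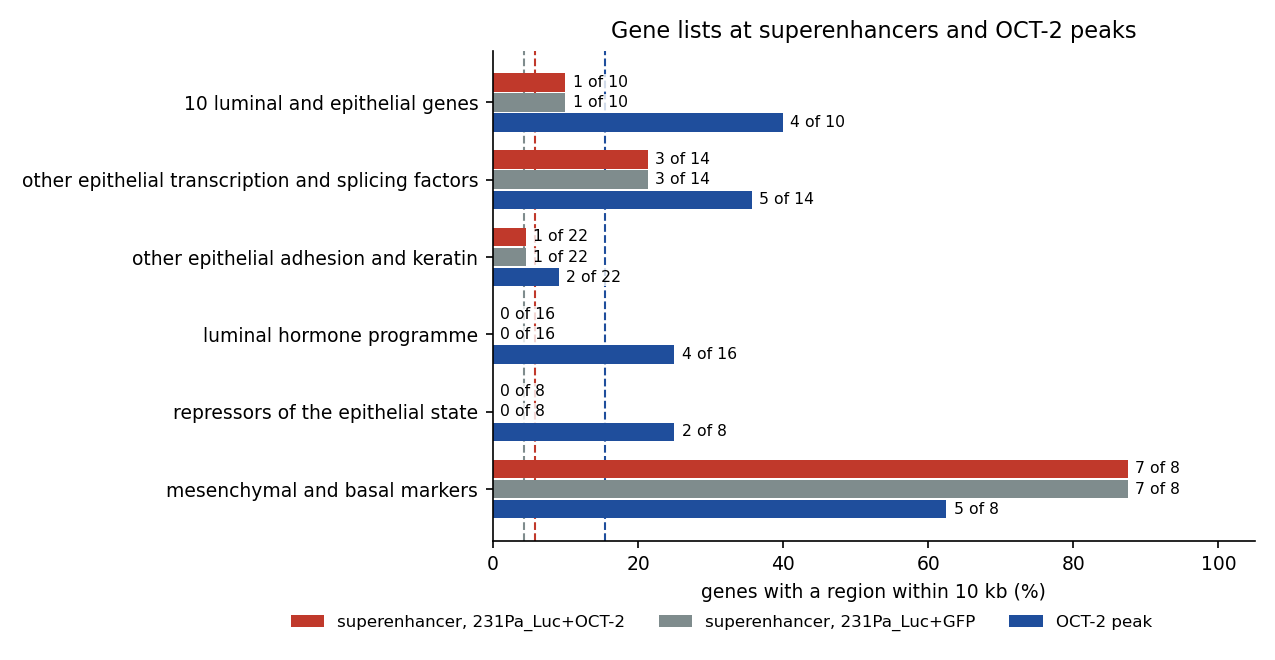
Share of each gene list (%) with a region within 10 kb of the gene body, for superenhancers of 231Pa_Luc+OCT-2 (red) and 231Pa_Luc+GFP (grey) and OCT-2 peaks (blue), with counts beside the bars. Dashed lines are the shares over protein-coding genes, 5.74%, 4.31% and 15.5%; the luminal hormone genes have 0 of 16 at superenhancers and 4 of 16 at peaks.

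Each gene has 9 yes or no values, from 3 lists at 3 distances, and genes of the other lists were compared with the members on all 9. The pattern of ESR1, GATA3, ELF3 and GRHL2, peaks at every distance and superenhancers at none, was shared by CTNND1, KLF5, TP63, GREB1, TBX3, PRLR, CA12, ZEB2 and TCF4. Over protein-coding genes 11.5% had it. The pattern of KRT7, superenhancers at every distance and a peak only from 50 kb, was that of ITGB1 and of 0.948% of protein-coding genes. The pattern of EPCAM was found in none of the other listed genes and in 0.314% of protein-coding genes. FOXA1, CDH1, KRT8 and KRT18 had no region at any distance, as did 39.5% of protein-coding genes.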

How the data were processed

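H3K27ac and OCT-2 were measured by ChIP-seq with 5 µg of antibody, per the labels' protocols. Bowtie, Bowtie2 (2.2.2.6), bedtools and HOMER appear in the submitters' processing notes, with builds hg38 and hg19; no source used here ties a tool or threshold to a list. The authors deposited 10 lists of intervals with start, end and a name, and no other value. The 3 lists of hg38 were used. Of the 7 others, 4 are named as hg19; the MDA-MB-436 lists name no build, and of their 1074 region ends 71 lay within 300 bp of an hg19 superenhancer end and 3 of an hg38 one. No coordinates were converted. 5 of 5741 OCT-2 peaks, on unplaced contigs, were left out.

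Coordinates are 1-based. A gene was called at a region when its RefSeq body (GRCh38.p14, which gives no exons) lay within 10, 50 or 200 kb, with an overlap of 1 bp sufficing. Promoter windows came from RefSeq (GRCh38.p14), and motifs were matched exactly on both strands. No test over samples or genes was made, and the distance calculation was tested on simulated data. The members and gene lists were chosen with earlier results of these data known. Named are all 10 members, genes at superenhancers or peaks within 200 kb of them, and genes of the other lists with a region within 10 kb; genes at more distant superenhancers, and OVOL1, ESRP1, KLF4, LAD1, RAB25, MUC1, PGR, XBP1, ERBB2, CAV1, TFF1, SPDEF and ZEB1, were named after their values were seen. A result for 1 gene of the other lists is not reported here. Python 3.11.15, numpy 2.4.6, pandas 2.3.3 and matplotlib 3.10.9 were used.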

Additional observations from a re-analysis of the deposited data

How the results depend on the processing

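The 4 main counts, of genes within 10 kb, were recomputed under 9 other settings, not every count under each. Of the 28 values, 21 stayed within 1.5 times the count given, but some of these could not change. Counting KRT8 and KRT18 as 1 locus moves no count, since neither gene was called. Settings that only drop superenhancers cannot move the count with a peak and no superenhancer, which already held every gene with a peak. The 21 are thus no measure of robustness. With the distance raised to 200 kb the count at superenhancers of 231Pa_Luc+GFP was 2, with EPCAM, beside 11.8% of protein-coding genes. When the centre of the region had to lie within 10 kb, the superenhancer counts were 0 in 231Pa_Luc+OCT-2 and 0 in 231Pa_Luc+GFP. The centres of the KRT7 regions lie farther off. The shares of protein-coding genes were then 2.09% and 1.33%, so among 10 genes a count of 0 lies near the background. With each region given to its nearest protein-coding gene alone, the 231Pa_Luc+GFP count was 0, because KRT80 took the region. The share of protein-coding genes was then 1.42%, which is likewise near a count of 0. Measured from the gene ends only, 2 genes had an OCT-2 peak (GATA3 and ELF3), beside 9.73% of protein-coding genes. The same 2 had a peak without a superenhancer, beside 8.19%. The peaks of ESR1 and GRHL2 lie deep in the body. Without the lowest quartile of peaks by width, 2 genes kept one (ESR1 and GATA3), beside 12.3% of protein-coding genes. Over all 59679 genes of the table the background shares within 10 kb were 4.16% for superenhancers of 231Pa_Luc+OCT-2, 3.20% for those of 231Pa_Luc+GFP and 9.67% for OCT-2 peaks. No paired analysis was possible because the lists merge the replicates and hold no value for any of them; for the same reason no replicate could be left out. The depth is unknown, so a missing region cannot be told from one below the authors' threshold.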
